A study of Rattus norvegicus with 16 samples.

Results

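A set of 306 circRNAs of the rat spinal cord was left in the unmodified fraction of an m6A immunoprecipitation on every array, while its signal in the precipitated fraction was seldom marked as well above background. Its members were chosen by the measured signals of both fractions. A circRNA probe entered it when its SUP signal, that of the RNA the antibody left behind, was detected on all 8 arrays and its IP signal, that of the RNA the antibody bound, was detected on fewer than 4. A signal counted as detected when the scanner software marked it as well above background and did not mark the spot as a non-uniform outlier. These 306 probes were 2.16% of the 14145 circRNA probes of the array, and 2.50% of the 12247 probes with SUP detected on all 8 arrays. Because detection of both signals chose the set, the difference between SUP and IP is described below and was not tested.

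The 8 rats were adult male Sprague-Dawley rats. Of these, 4 had received 10 μg of morphine in 10 μl through an intrathecal tube, each morning and evening for 7 days, until they were tolerant to its analgesic effect (MT group). The other 4 had received 10 μl of saline through such a tube (NS group). The tissue was taken on the morning of day 8, 1 h after an injection of morphine or saline. An acute effect of that dose and tolerance therefore cannot be told apart. RNA of the lumbar spinal cord was divided by an anti-m6A antibody, both fractions were treated with RNase R, and IP in Cy5 and SUP in Cy3 were hybridized to 1 array per rat. The dyes were never swapped, so that a dye effect and a difference between the fractions cannot be told apart. The 8 arrays lie on 1 slide, with MT in one row and NS in the other, so that slide position and group cannot be told apart either. Of the 21 cell type marker genes looked up to check the tissue, only the neuronal Map2 could be matched to a linear RNA probe of the array, and it was detected on all 8 arrays in SUP and in IP.

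CircRNAs are closed loops that form when a downstream splice donor joins an upstream acceptor of the same transcript, and without free ends they resist RNase R, which digests linear RNA. m6A is a methyl group on adenosine that METTL3 and METTL14 add, FTO and ALKBH5 remove, and YTH proteins read. The antibody used here binds RNA that carries it, so that a circRNA without m6A would remain in SUP, as would m6A-carrying molecules that the antibody did not capture. In the nervous system circRNAs are abundant, and some bind miRNAs or proteins. Each circRNA of the set is named by its array probe, since host genes, probe sequences and genome positions were not used here.

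In most of these circRNAs IP was low and still above 0, so that the name "detected only in the unmodified fraction" held for a minority. IP was detected on no array in 87 circRNAs, on 1 array in 63, on 2 in 88 and on 3 in 68. Under a looser mark of the scanner software, which asks only that a signal be positive and differ from background, IP was present on at least 4 arrays in 294 of the 306 and on all 8 arrays in 152. None lacked it on every array. The 306 circRNAs are therefore best read as circRNAs with weak IP. None of them was among the 12893 circRNAs whose log2 values the authors deposited, which were exactly those with IP detected on 4 or more arrays.

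Intensities are given on a log2 scale, after each array and channel was set to the mean of the spike-in RNAs. On this scale the mean SUP of the 306 circRNAs had a median of 7.44 and ranged from 6.21 to 10.30. The 11941 other circRNAs with SUP detected on all 8 arrays had a median of 9.50 and reached 20.20. When all 12247 were divided by mean SUP into 10 bins of equal size, 132 circRNAs of the set were in the lowest bin and made up 10.8% of it, and 260 were in the lowest 3 bins. Bins 4 to 7 held 26, 11, 8 and 1, and the 3 bins above these held none.

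**Figure D1:**
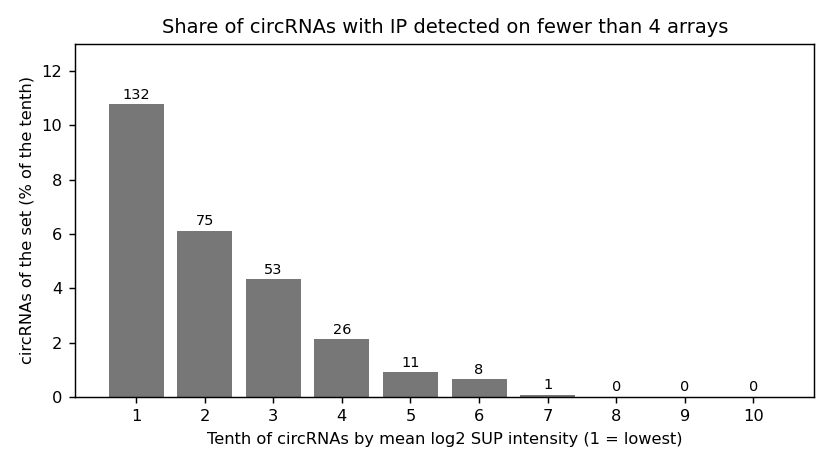
The x axis gives the 10 bins of the 12247 circRNAs with SUP detected on all 8 arrays, from the lowest to the highest mean log2 SUP, and the bars give the percentage of each bin that belongs to the set, with the number above. The share falls from 10.8% in the lowest bin to 0 in the highest 3 bins.

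Since the rule held IP low in every circRNA of the set, its median IP was alike at low and high SUP. It was 4.69 in the lowest bin and 4.80 in bin 6, where the median SUP of the set was 9.54. The other circRNAs of the lowest bin had a median IP of 6.85, and those of bin 6 had one of 9.08. That the set lay farther below the others in bin 6 follows from the rule as well.

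At the threshold of the rule the values changed little from one side to the other. The 68 circRNAs of the set with IP detected on 3 arrays had a median SUP of 7.65 and a median IP of 5.07. The 92 circRNAs just outside, with IP detected on 4 arrays, had a median SUP of 7.55 and a median IP of 5.30. The rule cut on the number of arrays with IP detected, so that nearby IP medians on its 2 sides follow in part from it. Whether a gap sets the set apart was not tested.

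**Figure D2:**
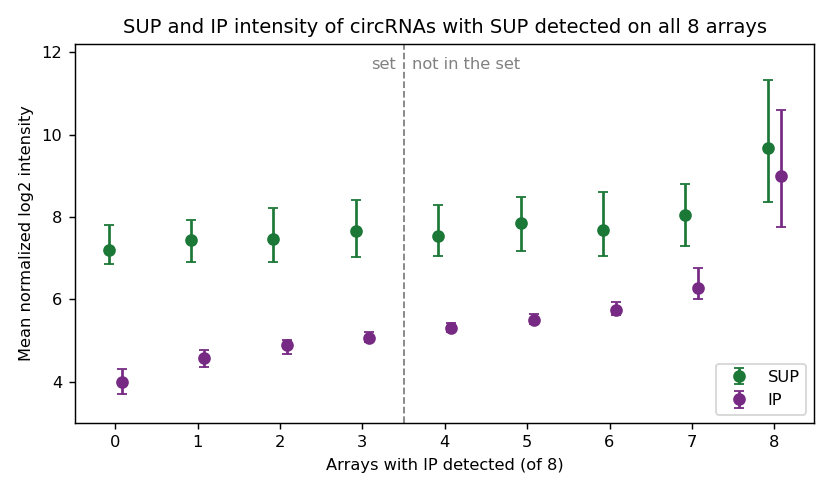
Circles give the median over circRNAs of the mean normalized log2 intensity of SUP (green) and IP (purple), with bars from the lower to the upper quartile, by the number of arrays with IP detected, for circRNAs with SUP detected on all 8 arrays. The dashed line is the edge of the set, across which median IP moves from 5.07 to 5.30, while the 11023 circRNAs with IP on all 8 arrays have medians of 9.67 in SUP and 8.98 in IP.

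The circRNA of the set with the highest SUP was that of probe ASCRPR013434. MT replicates 1 to 4 had a normalized log2 SUP of 10.64, 10.89, 10.24 and 10.63, and NS replicates 1 to 4 one of 10.46, 10.30, 9.56 and 9.69. Its log2 IP was 4.39, 5.75, 5.56 and 4.96 in the MT rats and 5.56, 3.78, 2.73 and 2.84 in the NS rats. IP was detected in MT replicates 2 and 3 and in NS replicate 1. In every rat SUP was far above IP, and no exact ratio is given, as IP of both groups rests in part on undetected values.

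ASCRPR013196 was the next, with the 8 rats close together. Its log2 SUP was 10.28, 9.87, 10.36 and 10.01 in the MT rats and 9.65, 9.78, 9.17 and 9.59 in the NS rats. Its IP lay between 4.47 and 6.05 and was detected in MT replicate 3 and NS replicate 2. ASCRPR009211 and ASCRPR001674 had nearly the same mean SUP and varied far more between rats. The log2 SUP of ASCRPR009211 was 11.09, 10.16, 10.43 and 9.82 in the MT rats and 10.27, 9.79, 7.97 and 8.65 in the NS rats. In ASCRPR001674 it was 11.35, 9.71, 10.58 and 9.58 in the MT rats and 10.03, 9.76, 8.47 and 8.13 in the NS rats. Both had their highest value in MT replicate 1 and low values in NS replicates 3 and 4.

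Of the 10 circRNAs with the highest SUP, all with a mean of at least 9.35, IP was detected on 3 arrays in 6, on 1 or 2 arrays in 3, and on no array in 1. In each of them every SUP value was above every IP value, in all 8 rats.

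**Figure D3:**
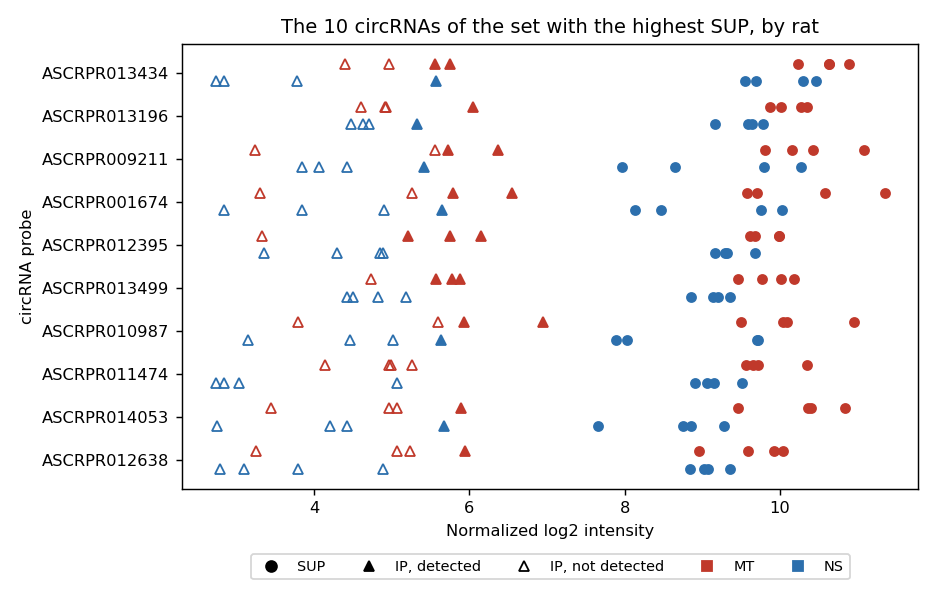
Each row is 1 of the 10 circRNAs of the set with the highest mean SUP, and the x axis is the normalized log2 intensity. Circles are SUP and triangles IP (filled where detected, open where not) of the single MT rats (red) and NS rats (blue), and no triangle reaches the circles of its row.

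ASCRPR011474 had the highest SUP among the 87 circRNAs whose IP was detected on no array. Its log2 SUP was 9.72, 10.35, 9.65 and 9.57 in the MT rats and 9.51, 9.15, 8.91 and 9.06 in the NS rats. Since IP has only a bound in such a circRNA, SUP was compared with the lowest detected IP signal of each array, or with the circRNA's own IP where that was higher, after loess and Aquantile normalization of both channels. SUP of ASCRPR011474 was at least 12.4-fold higher than IP in the MT group and at least 11.4-fold higher in the NS group. In the same order the bound was at least 10.3-fold, then at least 7.30-fold, for ASCRPR006586, and at least 10.1-fold, then at least 5.15-fold, for ASCRPR003188. All such folds are open to dye bias, because the dyes were not swapped.

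Most of the 87 circRNAs had much smaller bounds. The median was at least 2.39-fold in the MT group and at least 2.31-fold in the NS group. A bound of 4-fold was reached by 25 circRNAs in the MT group but by 12 in the NS group. With the spike-in normalization the medians were 4.54-fold and 3.38-fold, so that the size of the bound depends on how the channels are scaled.

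IP was detected in very different numbers of these circRNAs from rat to rat. MT replicates 1 to 4 had IP detected in 78, 36, 134 and 11 of the 306, and NS replicates 1 to 4 in 36, 47, 54 and 47. The highest and the lowest number both belong to the MT group, and the NS group lies between them. Over all circRNA probes IP was detected in between 83.6% and 92.7% of the probes per rat, and MT replicate 4 had the lowest share and MT replicate 3 the highest, as in the set. In 101 circRNAs IP was detected in rats of both groups, in 74 only in MT rats and in 44 only in NS rats. As at most 3 arrays could have IP detected, such a split follows in part from the rule.

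IP was detected in 3 MT rats and no NS rat in 14 circRNAs, and in 3 NS rats and no MT rat in 5. Of the former, ASCRPR012395 had log2 IP values of 5.75, 6.15, 5.20 and 3.32 in the MT rats and 4.89, 3.35, 4.85 and 4.30 in the NS rats. The undetected value of MT replicate 4 was below every NS value, so that the groups overlapped. Of the latter, ASCRPR010542 had log2 IP values of 5.39, 5.06, 4.75 and 5.17 in the MT rats and 5.38, 5.50, 5.57 and 6.06 in the NS rats. Its groups overlapped too, and its mean SUP of 7.98 ± 0.29 (SD, n = 4) in the MT rats stood beside 7.93 ± 0.63 (SD, n = 4) in the NS rats. In ASCRPR007045, with the same detection, IP was 3.95, 5.64, 4.61 and 5.10 in the MT rats and 5.32, 5.38, 5.95 and 5.81 in the NS rats.

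**Figure D4:**
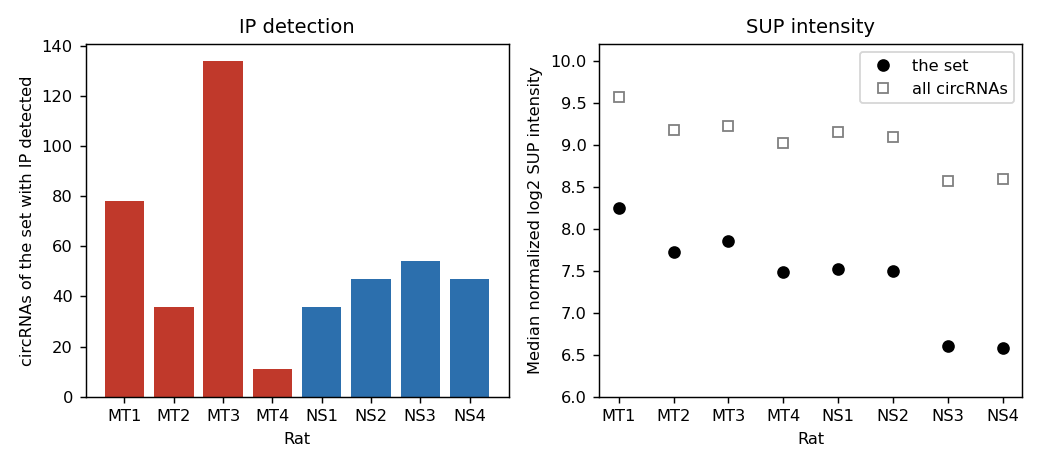
Left, bars give the number of the 306 circRNAs with IP detected in each rat of the MT group (red) and the NS group (blue). Right, points give the median normalized log2 SUP intensity per rat, over the set (filled) and over all circRNA probes (open). IP detection runs from 11 to 134 circRNAs within the MT group, and SUP of the set is lowest in NS replicates 3 and 4, at 6.60 and 6.58.

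Whether the unmodified fraction of these circRNAs differed between morphine-tolerant and saline rats was asked next, in a contrast that the rule did not use. SUP was higher in the MT group in most of the set, and in whole tissue more cells of a type and more RNA per cell cannot be told apart. The mean SUP was higher in the MT group in 297 of the 306 circRNAs, against 75.3% of the 13347 circRNAs tested, and the median log2 change was 0.69 (1.62-fold) against 0.28 (1.22-fold) over all of them. The first number was 247 (80.7%, against 43.2% of all) with quantile and 230 (75.2%, against 42.2%) with loess and Aquantile normalization, and 258 (84.3%, against 64.6%) without NS replicates 3 and 4. The median was 0.22 with loess and Aquantile normalization, where that of all circRNAs was −0.08, and 0.22 with normexp background correction, where it was 0.13. It was 0.28 with quantile normalization, against −0.09 over all, and 0.30 without NS replicates 3 and 4, against 0.09 over all. By limma, with the criterion of a 1.5-fold or larger difference at an unadjusted P under 0.05, 121 of the 306 passed with higher SUP in the MT group, which is 39.5% against 16.2% of all circRNAs tested. No circRNA of the set passed with lower SUP, against 0.112% of all. In 54, or 17.6%, every MT rat was above every NS rat, against 11.0% of all, and in none was every MT rat below every NS rat, against 1.01%, although there were 4 such circRNAs with quantile normalization and 4 with loess and Aquantile normalization, against 8.56% and 7.17% of all.

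None of the 306 had an adjusted P under 0.05 over all circRNAs tested, with limma (Benjamini-Hochberg) or the methods' t-test. The smallest was 0.161 with limma. At an unadjusted P under 0.05 there were 135 by limma (44.1%, against 23.1% of all) and 87 by the methods' t-test (28.4%, against 18.5% of all). This excess was absent with quantile normalization, with 80 by limma (26.1%, against 26.2%), and with loess and Aquantile normalization, with 75 (24.5%, against 24.9%). The number past the criterion rested on single rats. It was 57 without MT replicate 1 (18.6%, against 8.03% of all circRNAs tested) and 76 without MT replicate 3 (24.8%, against 11.1%). Without NS replicate 3 it was 64 (20.9%, against 7.82%), and 64 also when NS replicate 4 was left out (20.9%, against 8.25%). It was 188 without NS replicate 1 (61.4%, against 28.7%), so that the share over all circRNAs moved with the same rats. Leaving out MT replicate 4, NS replicate 1 or NS replicate 2 raised the number of circRNAs whose groups were separate, with MT above NS, to 144 (47.1%, against 24.5% of all), 96 (31.4%, against 18.4%) or 85 (27.8%, against 17.3%). Without both NS replicates 3 and 4, a choice made after the data were seen, 30 passed (9.80%, against 2.67% of all). The normalization moved it as well, to 69 (22.5%, against 8.40% of all) with the 75th percentile of each array set equal, 54 (17.6%, against 7.78%) with quantile normalization and 47 (15.4%, against 7.08%) with loess and Aquantile normalization. With normexp background correction it was 13, and at 4.25% the share was then below the 5.71% of all circRNAs tested. At an unadjusted P under 0.05 alone, normexp gave 130 by limma (42.5%, against 23.9% of all).

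The rats that set this difference can be seen in the single values. MT replicates 1 to 4 had a median SUP over the set of 8.25, 7.73, 7.85 and 7.48, and NS replicates 1 to 4 one of 7.52, 7.50, 6.60 and 6.58. MT replicates 1, 2 and 3 lay above every NS rat, NS replicates 3 and 4 were lowest, and MT replicate 4 was level with NS replicates 1 and 2. Without MT replicate 1 the median log2 change over the set was 0.58, against 0.18 over all circRNAs tested. Without both NS replicates 3 and 4 it was 0.30, against 0.09. Of the 306 circRNAs, 212 (69.3%) had their highest SUP in MT replicate 1, and 132 and 149 had their lowest in NS replicates 3 and 4. Over all 12247 circRNAs with SUP on all 8 arrays, 52.4% had the highest SUP in MT replicate 1, and 33.9% and 28.8% the lowest in NS replicates 3 and 4. The mean log2 spike-in signal of SUP, which is subtracted, was between 9.26 and 9.71 in the MT rats and between 9.62 and 9.99 in the NS rats, with the highest values in NS replicates 3 and 4. Its part in the result was not tested beyond the normalizations given above.

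**Figure D5:**
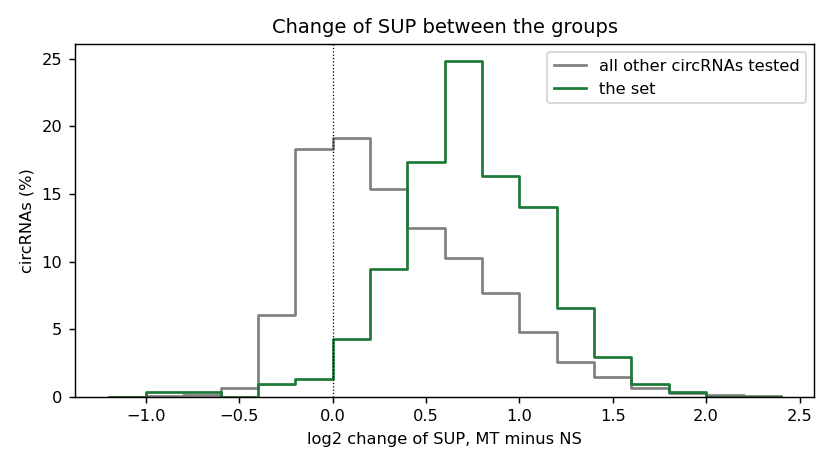
The x axis is the log2 change of SUP, MT minus NS, and the y axis the percentage of circRNAs per interval of 0.2, for the set (green) and for all other circRNAs tested (grey). The set lies to the right of the others, with a median of 0.69 against 0.27.

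This shift was not particular to circRNAs with IP detected on fewer than 4 arrays. The median log2 change of SUP was 0.75, 0.68, 0.67 and 0.74 in the circRNAs of the set with IP detected on 0, 1, 2 and 3 arrays. It was 0.72, 0.70, 0.61 and 0.65 in the circRNAs outside it with SUP on all 8 arrays and IP detected on 4, 5, 6 and 7. With IP detected on all 8 arrays it was 0.22. So the set shared its higher SUP with the other circRNAs in which IP was missed on at least 1 array. The difference was also present between circRNAs of like SUP. In the lowest bin of SUP the median log2 change was 0.57 in the set and 0.27 in the others. In bin 2 these were 0.86 and 0.31, in bin 3 they were 0.91 and 0.35, and in bin 4 they were 0.97 and 0.35.

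Among the 46 circRNAs past the criterion with separate groups, 15.0% of the set against 7.1% of all circRNAs tested, ASCRPR000633 had the largest difference. Its log2 SUP was 9.69, 9.43, 9.26 and 8.33 in the MT rats and 8.17, 8.13, 6.84 and 6.27 in the NS rats. Every MT rat was above every NS rat, with MT replicate 4 close to NS replicates 1 and 2. The change was 1.82 log2, or 3.54-fold (standard error 0.49 log2, limma adjusted P = 0.161), with means of 9.18 ± 0.59 (SD, n = 4) and 7.35 ± 0.95 (SD, n = 4).

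ASCRPR014053 followed, which was also one of the 10 with the highest SUP. Its log2 SUP was 10.41, 10.36, 10.84 and 9.46 in the MT rats and 9.28, 8.85, 7.66 and 8.75 in the NS rats. The change was 1.63 log2, or 3.10-fold (standard error 0.40 log2, limma adjusted P = 0.161). IP of ASCRPR014053 was detected in MT replicate 3 and NS replicate 2. In both circRNAs the groups were separate and the adjusted P did not pass.

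Of the 10 circRNAs with the highest SUP, 6 passed the criterion with higher SUP in the MT group (16.2% of all circRNAs tested did) and 4 had separate groups (11.0% of all), and their log2 changes were between 0.46 and 1.63. With the 75th percentile of each array set equal, 3 passed (8.40% of all did) and 1 had separate groups (5.54% of all). ASCRPR013434, ASCRPR011474 and ASCRPR013499 no longer passed. With each rat left out, between 2 (without NS replicate 3, where 7.82% of all passed) and 9 (without NS replicate 1, where 28.7% of all did) passed. The 4 circRNAs that did not pass included ASCRPR001674, with the third largest change, 1.21 log2, and wide spread in both groups (SD 0.83 for MT and 0.94 for NS, n = 4 each). Across the set the median SD between rats was 0.43 for MT and 0.56 for NS, against 0.28 and 0.30 over all circRNAs tested.

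The circRNA of the set with the lowest SUP, ASCRPR004704, did not share the shift. Its log2 SUP was 6.60, 6.42, 5.87 and 5.96 in the MT rats and 6.76, 6.43, 5.96 and 5.64 in the NS rats. The change was 0.01 log2 (standard error 0.28, limma adjusted P = 0.980), and the groups overlapped. Its IP was between 4.40 and 5.55 and was detected in NS replicates 2 and 4.

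IP of the set was mostly not marked as well above background, and its difference between the groups was not tested. From these mostly undetected values, the median log2 change of IP over the set, MT minus NS, was 0.32, beside 0.69 for SUP. The probes of the set were spread over the array, with 77, 75, 80 and 74 in 4 equal parts of its surface, or between 2.11% and 2.25% of the circRNA probes of each part.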

How the data were processed

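The members and lists were chosen with earlier results of these data known. The authors scanned each array in both colours, and the deposited intensity of each spot had been background-subtracted and dye-normalized by Agilent Feature Extraction 11.0.1.1. The authors also deposited log2 values for 12893 circRNAs, from which the log2 processed signal differed by 1 fixed amount in each array and channel. Each circRNA has 1 spot. From the log2 processed signal the mean of the 102 named spike-in probes of that array and channel was subtracted, and 1 constant was added for all. Which spike-ins the authors used is not given in the sources used here. Local background had a median of 15 to 20 intensity units per array, and the number of arrays limits the precision. SUP was compared between groups with limma 3.58.1 in R 4.3.3 (lmFit and eBayes) for circRNAs with SUP detected on at least 4 arrays, all of the set among them, with Benjamini-Hochberg adjustment over all 13347. The labels call the samples biological replicates. In simulated data with 200 circRNAs changed 2-fold, 88.5% of them met the criterion and 50% fell under 0.05 in adjusted P, while 344 unchanged circRNAs passed the criterion. The simulated noise was drawn separately for each circRNA and rat. It held no shift shared by many circRNAs of a rat, so these numbers give no error rate for the measured data.

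The circRNAs that could be named were the 10 with the highest SUP, up to 5 with the largest rise and up to 5 with the largest fall, if they met the criterion and the groups did not overlap, the 3 with the highest SUP among those with IP detected on 0 arrays and on 3 arrays of 1 group only, and the one with the lowest SUP. These came to 20, of which a part is given. Alternatives were the 75th percentile, quantile, loess and Aquantile normalization, the constants of the deposited values, normexp (offset 50) on the median spot signal, since no mean spot signal was given, no filter or SUP detected on all 8 arrays, outlier spots kept, the methods' t-test (named there for qRT-PCR), a replicate block, each rat left out, and other detection rules. Leaving out NS replicates 3 and 4 together was added after the data were seen. Python 3.11.15 with pandas 2.3.3 and numpy 2.4.6 was used for counts and medians.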

Additional observations from a re-analysis of the deposited data

Results flagged for a closer look

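Of 46 groups of 4 values checked, 2 held a rat that lay far from the other 3, where chance gives about 1 in 20. In ASCRPR000161, log2 SUP was 10.08 in MT replicate 1 and between 8.48 and 8.74 in the other MT rats, a gap of 0.836 of the whole range. In ASCRPR006586 it was 10.08 in MT replicate 1 and between 9.30 and 9.43 in the others, a gap of 0.837 of the range.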

How the results depend on the processing

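The number of circRNAs in the set was 307 when outlier marks were ignored, 56 with the looser mark of a signal that is positive and differs from background (12 of them in the set), 87 with IP detected on no array, and between 323 and 412 with each rat left out. The number past the criterion with higher SUP in the MT group was 69 with the 75th percentile, 54 with quantile, 47 with loess and Aquantile normalization, 13 with normexp, 77 with the methods' t-test (25.2%, against 10.3% of all circRNAs tested), 102 with the constants of the deposited values (33.3%, against 14.2%), 30 without NS replicates 3 and 4, and between 57 and 188 with each rat left out. With lower SUP it was 2 with the 75th percentile (0.654%, against 2.73% of all), 3 with quantile (0.980%, against 4.43%) and 3 with loess and Aquantile normalization (0.980%, against 4.74%), 1 with the deposited constants (0.327%, against 0.472%), 1 without NS replicates 3 and 4 (0.327%, against 0.399%), and between 0 and 2 with each rat left out, with 2 without NS replicate 1 (0.654%, against 0.219%) and 1 without MT replicate 1 (0.327%, against 0.333%). Separate groups with MT above NS were found in 33 circRNAs with the 75th percentile (10.8%, against 5.54% of all), 30 with quantile (9.80%, against 5.82%), 27 with loess and Aquantile normalization (8.82%, against 6.09%), 48 with the deposited constants (15.7%, against 8.71%), 69 with normexp (22.5%, against 12.5%), 60 without NS replicates 3 and 4 (19.6%, against 13.1%), and between 55 and 144 with each rat left out. MT below NS was found in 4 with quantile (8.56% of all) and 4 with loess and Aquantile normalization (7.17% of all), in 1 without MT replicate 1 (2.84% of all) and in 1 without NS replicate 1 (2.98% of all). No alternative gave an adjusted P under 0.05 in the set, the smallest being between 0.072 and 0.807.

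The median log2 change over the set was 0.22 with loess and Aquantile normalization, likewise 0.22 with normexp, and 0.39 with the 75th percentile, where the median over all circRNAs tested was −0.02. It exceeded the median of all circRNAs by 0.41 with the spike-ins, the 75th percentile and the deposited constants, and by 0.09 with normexp. The median bound of SUP over IP was 4.54 for MT and 3.38 for NS with the spike-in normalization. With the replicate number as a block 183 circRNAs passed with higher SUP (59.8%, against 25.6% of all, which was 16.2% without the block) and 1 with lower SUP (0.327%, against 0.120% of all). The deviations of same-numbered rats from their group means correlated at 0.62, −0.22, −0.12 and 0.59. Only replicates 1 and 4 correlated best with their own number, and 4 values cannot decide on pairing.

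Of 20 named circRNAs, ASCRPR004704 and ASCRPR010542 changed direction. The change of ASCRPR004704 was −0.29 with the 75th percentile, −0.48 with quantile, −0.14 with the deposited constants, −0.54 with loess and Aquantile normalization, −0.38 without NS replicates 3 and 4, and between −0.17 and 0.20 with each rat left out. That of ASCRPR010542 was −0.26, −0.37, −0.11 and −0.43 with those 4 normalizations, and between −0.10 and 0.35 with each rat left out. The cause was not tested. Where IP lies near background, the depth of the arrays gives only a bound.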
